A study of Drosophila melanogaster with 12 samples.

Results

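The Dpr, DIP, Beat and Side proteins are 4 families of cell surface proteins of the immunoglobulin superfamily in *Drosophila*. Their genes were chosen by symbol, and 54 of the 17208 genes of each table were found, namely 21 *dpr*, 11 *DIP*, 14 *beat* and 8 *side* genes. RNA was sequenced from pools of imaginal discs of larvae in the third instar in which the Smad corepressor gene *fuss* was overexpressed or not. The eye antennal discs came from GMR-Gal4 > UAS-*fuss* larvae and from GMR-Gal4 > w1118 controls, with 40 discs in each library. The wing discs came from nub-Gal4 > UAS-*fuss* larvae and from nub-Gal4 > w1118 controls, with 30 discs in each library. Each of these 4 groups had 3 libraries, and all of them carry a Gal4 driver. GMR-Gal4 drives expression in the retina posterior to the morphogenetic furrow, and nub-Gal4 in the wing pouch. For the eye libraries the source label names nub-Gal4, but their genotype label and the paper's results give GMR-Gal4, which is taken as correct here.

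For each gene and tissue, the level given here is the authors' mean normalized count over the 6 libraries of that tissue. *fuss* overexpressing and control libraries are pooled in this mean, so it shows where a gene was measured but not how it responded to *fuss*. The comparison of *fuss* overexpression with control was not analysed here. Since the mean over both genotypes is that of groups of equal size, the mean of either genotype can lie anywhere between 0 and 2 times the printed value. No spread between libraries goes with these values, and no test was run on them. No depth per library can be had from these tables, whose mean normalized counts sum to 29977881 in eye discs and 34175754 in wing discs. The mean of *fuss* itself, transgene and endogenous gene together, was 16643 in eye discs and 10363 in wing discs, which cannot check the genotype labels because both genotypes are pooled.

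Dpr proteins ("defective proboscis extension response") bind the DIPs (Dpr-interacting proteins) on the surface of other cells, and Side proteins are bound by Beat proteins in the same way. Both networks are known from the nervous system of *Drosophila*, where different neurons carry different members and the binding helps axons to choose their paths and synaptic partners. The eye disc holds differentiating photoreceptors whose axons grow to the optic lobe, while most of the wing disc is an epithelium with few neurons at this stage.

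Members of all 4 families were found far more often in eye discs than in wing discs. A gene was counted as measured if its mean normalized count reached 10. In eye discs 40 of the 54 members were measured, and in wing discs 14. With a limit of 5 these counts were 47 in eye discs and 22 in wing discs. The 14 members that reached 10 in wing discs were also measured in eye discs. A further 26 members were measured in eye discs alone, 0 in wing discs alone and 14 in neither tissue. Of all 17208 genes, 696 were measured in eye discs alone, 381 in wing discs alone and 6666 in neither. Of the 13649 protein-coding genes these counts were 626, 296 and 3871. Over all genes of the tables the shares were alike, with 59.0% measured in eye discs and 57.2% in wing discs. Over protein-coding genes they were 69.5% in eye discs and 67.1% in wing discs. The members, with 74.1% in eye discs and 25.9% in wing discs, were thus near the protein-coding share in eye discs and far below it in wing discs. All 8 *side* genes were measured in eye discs, against 4 in wing discs. Of the *dpr* genes, eye discs had 16 above the limit and wing discs 5. For *beat* these counts were 10 in eye discs against 3 in wing discs, and for *DIP* they were 6 in eye discs against 2 in wing discs.

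**Figure D1:**
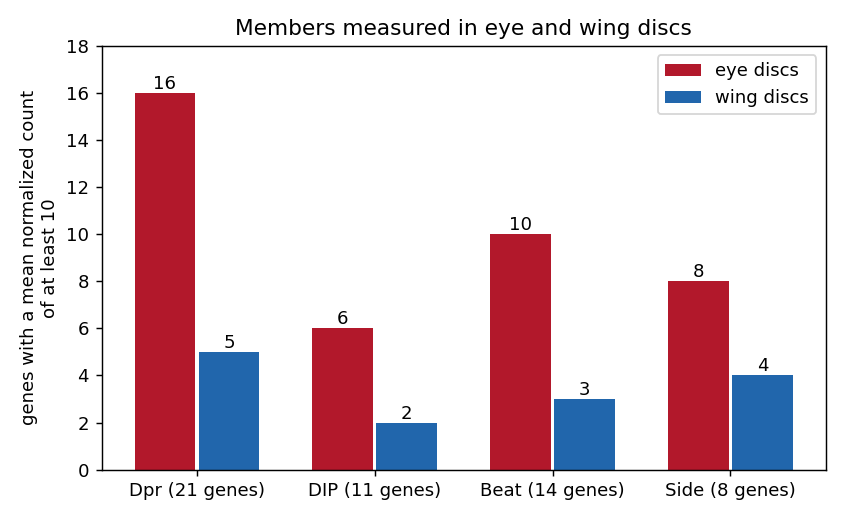
Number of members of each family whose mean normalized count reached 10 (vertical axis), in eye discs (red) and wing discs (blue). In every family more genes were measured in eye discs, from 8 against 4 for the Side genes to 16 against 5 for the Dpr genes.

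To set the tissues side by side, each table was scaled to a sum of 1000000 mean normalized counts, which gives scaled counts. The tables had been normalized separately, and tissue, Gal4 driver and number of discs change together, so that their parts in a difference cannot be told apart. The sequencing lanes were shared unevenly as well, with 2 eye libraries in lane 5 and 4 in lane 6, against 4 wing libraries in lane 5 and 2 in lane 6, and their part was not tested. The median log2 ratio of eye over wing discs was 0.00 over the 9465 genes measured in both tissues. Over the 13830 genes with a value above 0 in both tissues it was 0.03. Over the 53 members with a value above 0 in both tissues it was 3.57, with 47 members higher in eye discs and 6 lower in eye discs. With a pseudocount of 1 on the scale of mean normalized counts it was 2.52 over all 54 members. When values under 3 normalized counts over the 6 libraries of a tissue, a mean of 0.5, were set to that floor, the median was 3.33 over all 54 members and 0.16 over all genes. Over the 48 members above the floor in both tissues it was 2.99. Among the 40 members measured in at least 1 tissue, 34 were at least 2-fold higher in eye discs and 2 were at least 2-fold lower. Of the 10542 genes measured in at least 1 tissue, 14.3% were at least 2-fold higher and 6.24% at least 2-fold lower in eye discs. All 40 members pass the limit in eye discs, 26 of them there alone, against 696 of the 10542 genes. A member measured in eye discs alone mostly has to differ by this threshold. The 34 members and the 14.3% thus do not compare like sets. Among the 14 members measured in both tissues the median log2 ratio was 1.12. Of these 14, *DIP-alpha*, *DIP-epsilon*, *side* and *side-V* differed by less than 2-fold. The 2 members at least 2-fold lower, *dpr17* and *beat-IIb*, are also among these 14. Whether more cells or more RNA per cell make up a difference cannot be told apart in pooled discs.

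**Figure D2:**
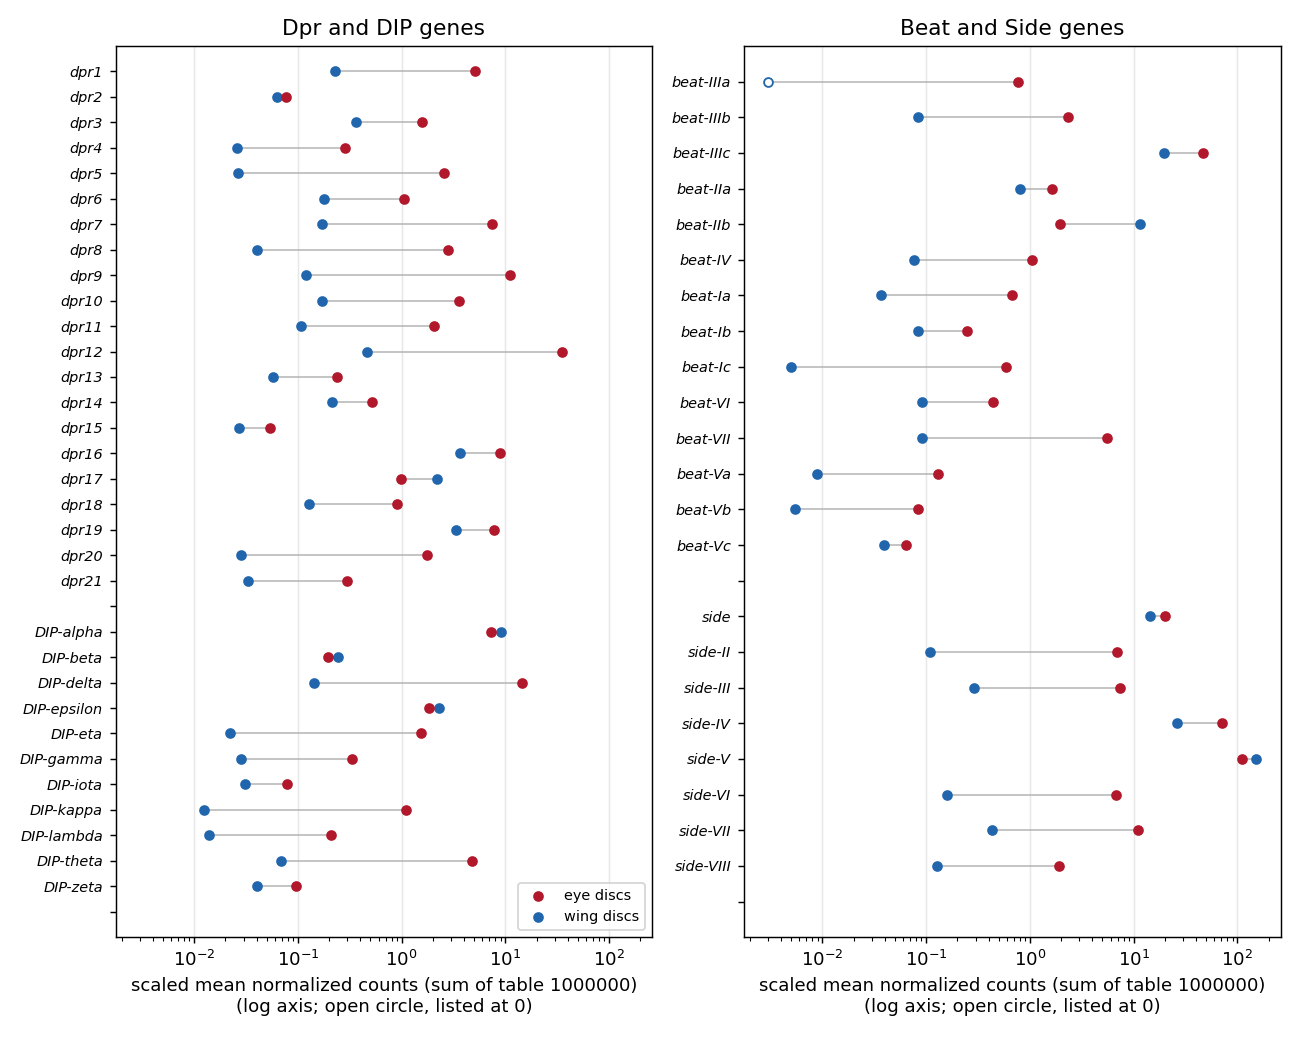
Level of each of the 54 members in mean normalized counts scaled to a sum of 1000000 (horizontal log axis), in eye discs (red) and wing discs (blue), with Dpr and DIP genes on the left and Beat and Side genes on the right. Most red points lie to the right of the blue points of the same gene, while for *dpr17*, *DIP-alpha*, *DIP-beta*, *DIP-epsilon*, *beat-IIb* and *side-V* the order is the other way round.

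Among the *dpr* genes, *dpr12* had the highest level per kilobase of exon in eye discs. Its mean normalized count was 1050 in eye discs and 15.8 in wing discs, a log2 ratio of 6.24. *dpr9* had 331.0 in eye discs and 4.15 in wing discs (log2 ratio 6.51). Both genes thus belong to the members that were near the limit of measurement, or below it, in wing discs. *dpr7* (BDGP6.54, chromosome 4, 247124 to 253329) had 220.7 in eye discs and 5.82 in wing discs (log2 ratio 5.43). *dpr5* had 76.4 in eye discs and 0.895 in wing discs (log2 ratio 6.61, or 5.54 with a pseudocount of 1). *dpr8* (83 in eye discs, 1.38 in wing discs) and *dpr20* (52.3 in eye discs, 0.975 in wing discs) showed the same kind of difference. *dpr1*, the gene whose mutant gave the family its name through a defect in the response to salt, had 152.5 in eye discs and 7.82 in wing discs. *dpr3* had 47.3 in eye discs and 12.4 in wing discs, where it was the member closest above the limit of 10.

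*dpr16*, *dpr17* and *dpr19* were measured in both tissues. *dpr16* had a mean normalized count of 263.2 in eye discs and 124.4 in wing discs (log2 ratio 1.27). *dpr19* had 233.9 in eye discs and 115.2 in wing discs (log2 ratio 1.21). The ratios of these 2 genes were far smaller than those of *dpr12* or *dpr9*. *dpr17* was the *dpr* gene with a higher level in wing discs, at 29.7 in eye discs and 75.7 in wing discs (log2 ratio -1.16). *dpr14* and *dpr18* passed the limit in eye discs alone. *dpr14* had 15.5 in eye discs and 7.26 in wing discs, and *dpr18* had 27.1 in eye discs and 4.38 in wing discs. Under the limit in both tissues were *dpr2*, *dpr4*, *dpr13*, *dpr15* and *dpr21*. Their levels ran from 1.61 for *dpr15* to 8.91 for *dpr21* in eye discs, and from 0.878 for *dpr4* to 2.17 for *dpr2* in wing discs.

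Of the *DIP* genes, 4 were measured in eye discs alone and 2 in both tissues. *DIP-delta* had the highest level per kilobase in eye discs, with a mean normalized count of 434.6 against 4.91 in wing discs (log2 ratio 6.66). *DIP-theta* had 142.3 in eye discs and 2.37 in wing discs (log2 ratio 6.10). *DIP-eta*, its neighbour on chromosome arm 2L, had 45.9 in eye discs and 0.767 in wing discs (log2 ratio 6.09). With a pseudocount of 1 the log2 ratios were 5.60 for *DIP-theta* and 4.92 for *DIP-eta*. Set against these, *DIP-alpha* was the leading *DIP* gene per kilobase in the wing disc, with 216.1 in eye discs and 308.3 in wing discs (log2 ratio -0.32). *DIP-epsilon* had 55.1 in eye discs and 77.5 in wing discs (log2 ratio -0.30). *DIP-kappa* had 32.8 in eye discs and 0.429 in wing discs, a wing value under the floor. The remaining 5 genes were under the limit in both tissues. Among them *DIP-gamma* was closest to it, at 9.95 in eye discs and 0.958 in wing discs. *DIP-beta* had 5.78 in eye discs and 8.24 in wing discs, and *DIP-iota*, *DIP-lambda* and *DIP-zeta* had 2.36, 6.29 and 2.86 in eye discs and 1.05, 0.478 and 1.38 in wing discs.

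**Figure D3:**
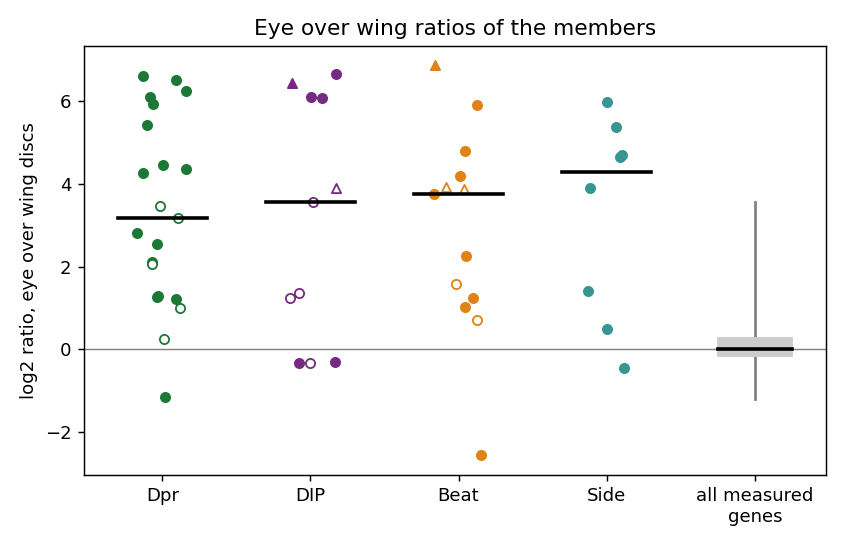
Log2 ratio of eye over wing discs (vertical axis) for each member, by family. Filled points are members measured in at least 1 tissue, open points are members under 10 in both, triangles are the 5 members with a wing value under the floor, whose ratios are uncertain, and black lines are medians over all points of a family, at 3.17 for Dpr, 3.57 for DIP, 3.76 for Beat and 4.28 for Side. The grey box and line at the right hold the 25th to 75th (-0.16 to 0.28) and the 5th to 95th percentiles (-1.19 to 3.57) of all genes measured in at least 1 tissue, and *beat-IIIa*, which is listed at 0 in wing discs, has no point.

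Of the *beat* genes, *beat-IIIc* stood apart by its level. It had a mean normalized count of 1384 in eye discs and 673.9 in wing discs (log2 ratio 1.23), the highest level per kilobase of the family in both tissues. *beat-VII* had 167.5 in eye discs and 3.15 in wing discs (log2 ratio 5.92), and *beat-IIIb* had 69.2 in eye discs and 2.82 in wing discs (log2 ratio 4.81). *beat-IIb* went the other way, with 59.0 in eye discs and 397.3 in wing discs. Its log2 ratio of -2.56 was the lowest of the 48 members above the floor in both tissues. The neighbouring *beat-IIa* had 48.5 in eye discs and 27.2 in wing discs (log2 ratio 1.02). *beat-Ia*, which motor axons need to leave their bundle at the muscle, had 20.2 in eye discs and 1.25 in wing discs. *beat-Ic* had 17.4 in eye discs and 0.17 in wing discs, a value under the floor. *beat-IV* had 31.2 in eye discs and 2.62 in wing discs. *beat-VI* had 13.1 in eye discs, where it was the member closest above the limit of 10, and 3.11 in wing discs. *beat-Ib* and the 3 *beat-V* genes were under the limit in both tissues, at 1.91 to 7.49 in eye discs and 0.184 to 2.85 in wing discs.

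The *side* genes *side-V* and *side-IV* held the highest levels per kilobase of all members. *side-V* had a mean normalized count of 3339 in eye discs and 5170 in wing discs (log2 ratio -0.44). It alone made up most of the summed level of the 54 members in wing discs, which was 423.3 scaled counts in eye discs and 249.4 in wing discs with it, and 311.9 in eye discs and 98.1 in wing discs without it. *side-IV* had 2113 in eye discs and 899.3 in wing discs (log2 ratio 1.42). *side*, which encodes Sidestep, an attractant for motor axons on larval muscles, had 606.5 in eye discs and 493.5 in wing discs (log2 ratio 0.49). The other 5 genes were higher in eye discs than in wing discs. *side-VII* had 332.5 in eye discs and 14.5 in wing discs (log2 ratio 4.70), *side-III* had 221.1 in eye discs and 9.98 in wing discs (4.66), and *side-II* had 205.7 in eye discs and 3.71 in wing discs (5.98). *side-VI* had 200.5 in eye discs and 5.44 in wing discs (5.39), and *side-VIII* had 57.7 in eye discs and 4.38 in wing discs (3.91). *side-III* was the member closest below the limit in wing discs.

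For a chosen list of 13 pairs of known binding partners both levels were read together. Of the *DIP* genes the list holds *DIP-alpha*, *DIP-gamma* and *DIP-delta* alone, so the counts cover the listed pairs and not the whole networks. Both partners were measured in 5 pairs in eye discs and in 1 pair in wing discs. Of all members, 74.1% were measured in eye discs and 25.9% in wing discs, so fewer full pairs in wing discs follow from these shares. Many pairs share a member, *DIP-gamma* for example, so the pairs are not independent. With a limit of 5 more pairs had both partners measured in each tissue. *DIP-delta* and its partner *dpr12*, which act together in neurons of the mushroom body, had the highest eye disc levels per kilobase in their families, and in wing discs *dpr12* alone passed the limit, at 15.8. *DIP-alpha*, which was measured in both tissues, binds Dpr6 and Dpr10 and is known from the matching of neurons in the medulla and from motor neurons. *dpr6* had 31.8 in eye discs and 6.16 in wing discs (log2 ratio 2.56), and *dpr10* had 106.1 in eye discs and 5.89 in wing discs (log2 ratio 4.36). *DIP-alpha* was thus found in wing discs with neither of these partners above the limit of 10, but both partners pass a limit of 5. *DIP-gamma* was under the limit of 10 in both tissues, while its partners *dpr16* and *dpr17* were measured in both. The eye disc value of *DIP-gamma*, 9.95, passes a limit of 5. *dpr11*, which marks a subset of R7 photoreceptors in the pupa and is another partner of *DIP-gamma*, had 61.6 in eye discs and 3.64 in wing discs (log2 ratio 4.27). *side* was measured with *beat-Ia* in eye discs and without it in wing discs. *side-IV* with *beat-IIb* was the pair measured in both tissues with the limit of 10. Its members differed in direction, with log2 ratios of 1.42 and -2.56. *side-VI* was measured in eye discs without any of its 3 *beat-V* partners. The partners were counted in whole discs, so these values do not tell whether they were made in the same or in touching cells, or in the brain, where photoreceptor axons end.

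Levels of different genes were compared per kilobase of exon. In eye discs the order began with *side-V* (580 mean normalized counts per kilobase), *side-IV* (412), *beat-IIIc* (355), *dpr12* (223) and *dpr7* (146), followed by *DIP-delta* (90.4), *dpr16* (90.1) and *dpr19* (87.1). In wing discs it began with *side-V* (898), *side-IV* (176), *beat-IIIc* (173) and *beat-IIb* (162), followed by *dpr19* (42.9), *dpr16* (42.6), *side* (42.1) and *DIP-alpha* (34.3). Without a spread between libraries, neighbours in these orders could not be told apart. The first 3 genes were the same in both tissues. Among all genes measured in a tissue, *side-V* stood at the percentile 61.1 of this level in eye discs and 69.3 in wing discs. *side-IV* stood at 51.9 in eye discs and 31.6 in wing discs, and the other measured members stood below the median gene of the tissue. In eye discs *dpr12* reached the percentile 37.7, *dpr7* 31.1 and *DIP-delta* 26.3.

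**Figure D4:**
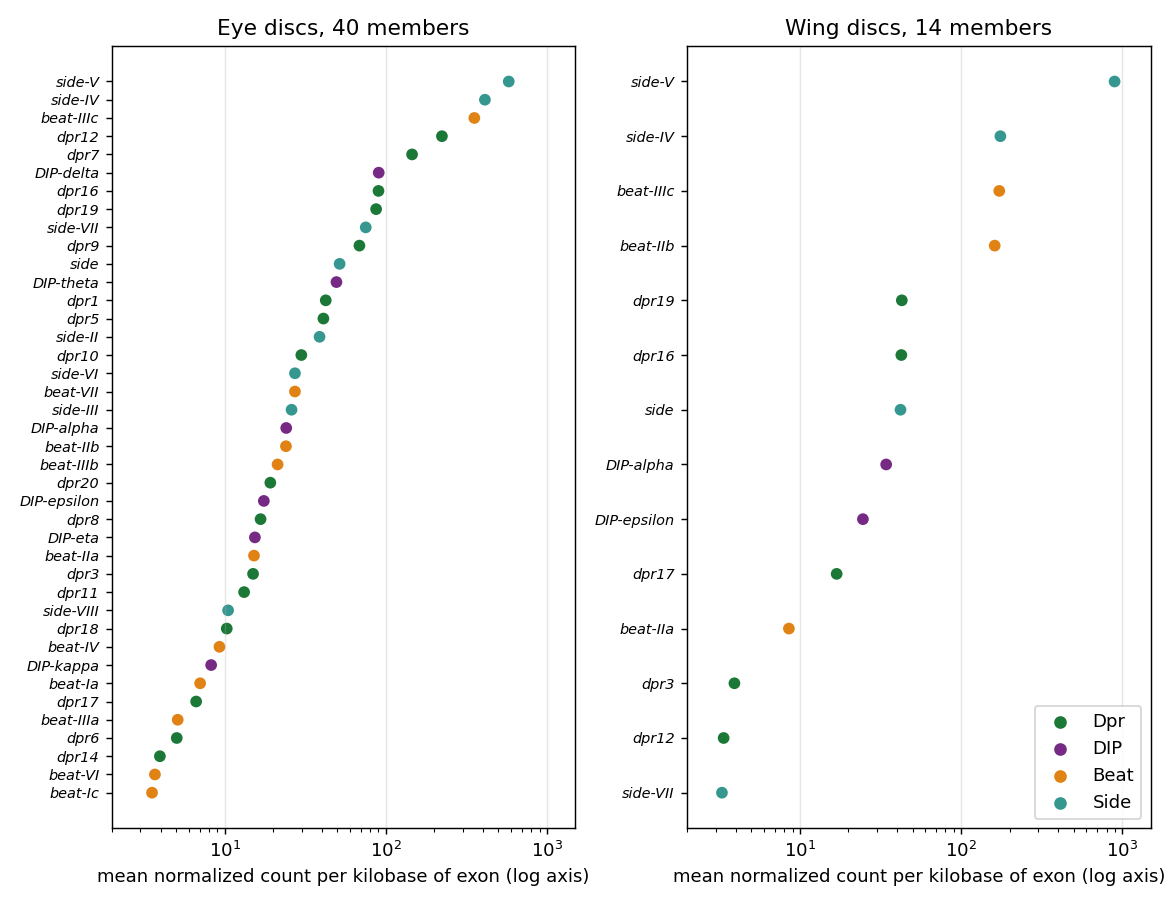
Mean normalized count per kilobase of exon (horizontal log axis) of the members measured in eye discs (left, 40 genes) and wing discs (right, 14 genes), ordered from high to low and coloured by family. *side-V*, *side-IV* and *beat-IIIc* lead in both tissues, while *dpr12* stands next in eye discs, at 223, and near the end in wing discs, at 3.36.

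Several members lie near each other in the genome, and such neighbours did not always share a level. The pairs given here are examples. On chromosome arm 3L of BDGP6.54 *dpr6* ends 8.09 kb before *dpr10*, with 0 protein-coding genes between them. Their mean normalized counts in eye discs were 31.8 and 106.1. *beat-Ic* and *beat-Ia* lie 8.26 kb apart on 2L with 2 protein-coding genes between them. They had like levels, at 17.4 and 20.2 in eye discs and under 10 in wing discs. *DIP-eta* (5601723 to 5617946) and *DIP-theta* (5626291 to 5658560) lie 8.34 kb apart on 2L with 1 protein-coding gene between them, and had log2 ratios of 6.09 and 6.10. On 3R *beat-IIb* (17232253 to 17265049) and *beat-IIa* (17320004 to 17366119) are 55.0 kb apart with 3 protein-coding genes between them, and their log2 ratios of -2.56 and 1.02 had opposite signs. *dpr17* (12094876 to 12111420) and *dpr15* (12138833 to 12158595) lie 27.4 kb apart on 3R with 1 protein-coding gene between them, and *dpr17* was measured in both tissues while *dpr15* was measured in neither. *dpr5* (11499984 to 11505951) and *dpr4* (11533483 to 11542949) lie 27.5 kb apart on 3R with 0 protein-coding genes between them, at mean normalized counts of 76.4 and 8.60 in eye discs.

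The exons of 4 members share over 10% of their bases with another gene. All exon bases of *beat-IIIa* are shared with *CG34106* on the same strand. The mean normalized count of *beat-IIIa* was 22.8 in eye discs and it was listed at 0 in wing discs, and that of *CG34106* was 178.0 in eye discs and 11.4 in wing discs. How reads were divided between these 2 genes decides the value of *beat-IIIa*, so it is uncertain. *beat-IIIa* is nevertheless included in the counts of members measured in eye discs, measured there alone and at least 2-fold higher there. For *side-IV* 67.5% of the exon bases are shared with antisense RNAs, and whether the counting used the strand is not stated in the labels or methods. The mean normalized counts of these antisense RNAs were 22.3 and 1.13 in eye discs and 12.4 and 0.84 in wing discs. *DIP-theta* shares 12.6% and *dpr4* 15.7% with RNA genes that had at most 2.40 mean normalized counts in either tissue.

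Markers of the tissue and many, but not all, markers of other cell types differed between the tissues as well. All 8 eye markers were at least 2-fold higher in eye discs, with a summed level of 1789 scaled counts in eye discs and 110.9 in wing discs. All 6 wing markers were higher in wing discs, 3 of them by at least 2-fold, with 270.8 in eye discs and 1105 in wing discs. The tissue labels thus fit their markers. Of 19 neuronal and photoreceptor genes, 17 were at least 2-fold higher in eye discs (median log2 ratio 4.71), and the list summed to 1940 scaled counts in eye discs and 239.5 in wing discs. The exceptions were the synaptic genes *Syx1A*, with 53.6 in eye discs and 59.6 in wing discs, and *Syt1*, with 27.8 in eye discs and 15.9 in wing discs. The neuronal and photoreceptor list shares *ato* (log2 ratio 5.63) and *gl* (7.34) with the eye markers, so these lists are not separate. Its log2 ratios ran from -0.15 for *Syx1A* to 7.34 for *gl*, with 2.14 for *elav*. Among 5 glial markers 4 were at least 2-fold higher in eye discs, with a median log2 ratio of 3.32 and a sum of 302.5 in eye discs and 204.4 in wing discs. Most of this sum was *nrv2*, and the other 4 markers summed to 82.3 in eye discs and 12.5 in wing discs. Among 4 haemocyte markers 3 were at least 2-fold higher in eye discs, summing to 291.0 in eye discs and 89.1 in wing discs. Markers of adepithelial myoblasts, the precursors of the flight muscles, were lower in eye discs in 5 of 5 cases, 3 of them by at least 2-fold. They summed to 108.1 in eye discs and 230.6 in wing discs. All 3 fat body markers were lower in eye discs, 2 of them by at least 2-fold, with a sum of 2835 in eye discs and 7168 in wing discs. Among 4 tracheal markers 2 were higher and 2 at least 2-fold lower in eye discs, with a sum of 914.9 in eye discs and 830.5 in wing discs. The parts of these cell types in the levels of the Dpr, DIP, Beat and Side genes were not tested.

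Other genes of cell surface recognition were set beside the members, from a list of 38 genes found in the tables. Of these, 37 were measured in eye discs and 36 in wing discs. 15 were at least 2-fold higher and 2 at least 2-fold lower in eye discs, and the median log2 ratio was 0.45. The median level of this list was 3908 mean normalized counts in eye discs and 3588 in wing discs. For the 54 members it was 50.4 in eye discs and 3.68 in wing discs, so the ratios of the list and of the members do not compare genes of like level. Genes with large ratios were the immunoglobulin gene *klg* (7.13), *Dscam3* (6.55) and the receptor gene *robo3* (6.53), while *Fas3* (-0.12), *Lar* (0.01) and *caps* (0.14) were close to 0. *cDIP*, which encodes a secreted protein that binds many Dprs and DIPs, had 7.68 mean normalized counts in eye discs and 23.7 in wing discs (log2 ratio -1.44).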

How the data were processed

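Sequenced RNA of 12 libraries was used as deposited. The reads were quantified by the authors with Salmon 1.1.0 on the *Drosophila* genome release of the paper's methods, imported with tximeta and compared with DESeq2 1.30.0, per the labels and the paper's methods. The 2 deposited tables hold, for each of 17208 genes, a mean normalized count. This is a signal scaled by the authors' size factors and averaged over the libraries of both genotypes. They also hold 5 columns of the authors' own comparison (log2 fold change, its error, statistic, p-value and adjusted p), which were not used here. For strand use and filters the labels and methods give nothing.

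Members and lists were chosen with earlier results of these data known. A gene was measured at a mean of at least 10. Tables were scaled to their sums. Exon lengths (union of exons) and positions came from BDGP6.54, which held all 54 members. All members over the limit may be named. Named in detail are the highest 4 per family and tissue, the extreme ratios, listed binding partners and the members around the limit. The other genes of the last paragraph are examples chosen after their values were seen. Of 41 listed surface genes 38 matched. The calculations were tested on simulated data. Python 3.11.15, numpy 2.4.6, pandas 2.3.3 and matplotlib 3.10.9 were used. Depth per library is unknown, so no interval could be given. Alternatives were other minimums, scalings, a pseudocount of 1 and the longest transcript as length.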

Additional observations from a re-analysis of the deposited data

How the results depend on the processing

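With a minimum mean normalized count of 5 in place of 10, 47 members were measured in eye discs and 22 in wing discs. With a minimum of 20 there were 37 in eye discs and 11 in wing discs. The number of members at least 2-fold higher in eye discs was 34 with scaling by the median ratio and by the sum without the highest genes, and 33 without scaling, which shifts the median of all genes measured in both tissues to -0.18. It was 40 with a minimum of 5 and 31 with a minimum of 20, and 2 members were at least 2-fold lower under each of these scalings and minimums. A pseudocount of 1 moved the ratios of 7 named members by over 1.5 times, for example the log2 ratio of *dpr5* to 5.54 and that of *beat-Ia* to 3.42, without a change of direction, and lowered the median over the members to 2.52. With the longest transcript as length, the 10 highest members per kilobase were the same genes in each tissue. No paired analysis was possible because the mean normalized count pools the replicates of both genotypes, and for the same reason no replicate could be left out. Wing levels of most members rest on few counts, and 6 of them lie at or under the floor of 3 counts over the tissue.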
